A study of Mus musculus with 15 samples.

Results

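Nucleosome occupancy was compared between resilient and control mice in the nucleus accumbens, which lies in the ventral striatum and takes part in reward and motivated behaviour. The description covers every position in the authors' deposited table of histone H3 occupancy for this pair of groups. It holds 17538 positions, of 83219 in the 3 H3 occupancy tables of the series. The table of susceptible against control mice accounts for 49408 of those, of which 32791 lie on chromosome 1 alone, and the table of resilient against susceptible mice for 16273. The resilient mice were C57BL/6 mice that had met a new aggressive CD1 mouse for 10 min on each of 10 days, a procedure called chronic social defeat stress, and that were placed in the resilient group by a social interaction test. The control mice were of the same strain, and the labels call them only "Control". Age and sex were not given. The tissue dates from 48 hours past the final defeat and pools 10 mice, so a value describes a mixture of cell types and of animals. Cross-linked chromatin was cut with micrococcal nuclease and immunoprecipitated with an antibody to H3. Libraries were amplified with 15 PCR cycles and read at 100 bp. The labels speak of triplicates, but the series holds 1 H3 sample for resilient and 1 for control mice, and the table is 1 result for the pair. No spread between replicates can therefore be given, and no statement below is a test between animals. In such bulk tissue, a change in the number of cells of a type and a change of occupancy within cells cannot be told apart.

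Genomic DNA is wound around octamers of histones to form nucleosomes, and H3 is part of every octamer. Micrococcal nuclease digests the linker DNA between nucleosomes, so H3-bound fragments that survive it report where nucleosomes sit and how often a site is occupied. Occupied sites in a promoter can hide DNA from transcription factors, and remodelling complexes such as ACF, made of ACF1 and the motor protein SNF2H, slide nucleosomes and even out their spacing. Each row of the table gives a position, the word Up or Down, a gene where one is near, and a class of location. No size of change, p-value, read count or depth is given, and positions that were examined but not selected are not listed. Up is read here as higher occupancy in resilient mice, the group named first. The files do not state this, and the opposite reading would turn every direction below round. The table's marks cannot check the labelled tissue against marker genes, because H3 occupancy is not expression.

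Of the 17538 positions, 6716 were marked Up in resilient against control mice (38.3%) and 10822 were marked Down (61.7%). The sequences of 6 promoters with a position within 250 bp upstream of the start are shown to make the unit of the table visible. Each line gives the 250 bases before the gene start, 5′ to 3′ on the gene's strand, from RefSeq on GRCm38.p6. Capitals mark the bases of a nucleosome core, taken as 147 bp, centred on the listed distance from the start, as far as they fall in these 250 bases. The distances were read from the table, which is on mm9, and applied to genes whose length differed by at most 2 bp between mm9 and GRCm38.p6. These genes were chosen after their values were seen, as protein-coding genes with 1 start and a position at least 80 bp upstream of it. Esp3, listed under the symbol Gm21945 in the table, encodes an exocrine-gland secreted peptide (chr17:40631825-40632074, plus strand, marked Down). Gtpbp8 encodes a GTP-binding protein (chr16:44746364-44746613, minus strand, marked Down). Olfr963 encodes an odorant receptor (chr9:39668809-39669058, plus strand, marked Down). Zdhhc25 encodes a member of a family of palmitoyltransferases (chr15:88600052-88600301, plus strand, marked Down). Gpnmb encodes a membrane glycoprotein of macrophages and pigment cells (chr6:49036268-49036517, plus strand, marked Up). Olfr251 encodes another odorant receptor (chr9:38377633-38377882, plus strand, marked Up).
Esp3, Down: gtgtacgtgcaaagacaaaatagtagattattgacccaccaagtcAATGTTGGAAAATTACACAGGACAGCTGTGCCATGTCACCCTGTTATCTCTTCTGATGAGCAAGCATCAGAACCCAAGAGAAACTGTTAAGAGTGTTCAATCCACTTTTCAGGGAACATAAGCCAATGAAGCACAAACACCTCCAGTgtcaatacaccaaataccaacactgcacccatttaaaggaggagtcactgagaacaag
Gtpbp8, Down: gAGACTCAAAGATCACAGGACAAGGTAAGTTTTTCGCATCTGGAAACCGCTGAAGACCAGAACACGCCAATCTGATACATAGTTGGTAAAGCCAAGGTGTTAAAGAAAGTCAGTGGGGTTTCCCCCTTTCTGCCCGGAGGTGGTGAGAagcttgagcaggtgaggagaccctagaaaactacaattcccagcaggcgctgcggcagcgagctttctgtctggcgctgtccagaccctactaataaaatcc
Olfr963, Down: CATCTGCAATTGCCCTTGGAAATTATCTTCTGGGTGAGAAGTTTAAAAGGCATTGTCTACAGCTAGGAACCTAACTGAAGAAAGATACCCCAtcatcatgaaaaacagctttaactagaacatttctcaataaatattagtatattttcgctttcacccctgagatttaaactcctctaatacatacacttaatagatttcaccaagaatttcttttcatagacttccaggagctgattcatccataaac
Zdhhc25, Down: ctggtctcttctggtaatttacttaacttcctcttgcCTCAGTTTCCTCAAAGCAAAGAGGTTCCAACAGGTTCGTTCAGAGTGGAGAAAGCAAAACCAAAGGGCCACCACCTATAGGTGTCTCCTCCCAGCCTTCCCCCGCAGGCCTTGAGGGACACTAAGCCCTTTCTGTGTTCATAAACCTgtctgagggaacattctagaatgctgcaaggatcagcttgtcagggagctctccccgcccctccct
Gpnmb, Up: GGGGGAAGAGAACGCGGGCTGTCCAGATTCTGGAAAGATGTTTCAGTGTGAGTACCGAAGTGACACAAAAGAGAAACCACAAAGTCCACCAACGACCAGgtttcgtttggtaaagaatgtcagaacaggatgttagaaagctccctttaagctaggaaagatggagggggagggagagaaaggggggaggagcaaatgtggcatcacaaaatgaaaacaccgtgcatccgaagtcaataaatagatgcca
Olfr251, Up: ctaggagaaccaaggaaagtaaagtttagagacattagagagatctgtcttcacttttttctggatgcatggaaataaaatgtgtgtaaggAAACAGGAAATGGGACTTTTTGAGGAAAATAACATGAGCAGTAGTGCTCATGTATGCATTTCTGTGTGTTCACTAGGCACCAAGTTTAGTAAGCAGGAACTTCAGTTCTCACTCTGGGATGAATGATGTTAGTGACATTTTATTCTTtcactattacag
With distances counted from the gene start and negative upstream, the listed position was at -131.5 bp for Esp3, -175.5 bp for Gtpbp8, -231.5 bp for Olfr963 and -139.5 bp for Zdhhc25. It was at -224.5 bp for Gpnmb and at -85.5 bp for Olfr251. The printed bases held few CpG dinucleotides, with a count of 1 for Esp3, 8 for Gtpbp8, 1 for Olfr963, 3 for Zdhhc25, 7 for Gpnmb and 0 for Olfr251.

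Low CpG content was shared by the genes with a position close to the start. In the mouse, promoters rich in CpG belong mostly to housekeeping and broadly used genes, and CpG-poor ones mostly to genes used in few tissues. Of 54 protein-coding genes with a position within 250 bp of the start, 38 had a RefSeq promoter with 1 start. Their 300-base windows, from 250 bases before to 50 after the start, held a median of 3 CpG, with quartiles of 1 and 5, and 2 of the 38 (5.26%) held more than 10. Over all 14731 protein-coding promoters with 1 start, the median was 13, with quartiles of 3 and 24, and 53.9% held more than 10. The 308 matched protein-coding genes with a position 1 to 3 kb from the start had a median of 5 CpG. The 1802 matched protein-coding genes with positions only in the gene body had a median of 17, with quartiles of 6 and 27. The median was 3 for the 31 matched genes marked Down close to the start and 3 for the 11 marked Up, which include non-coding genes. Short motifs were searched on both strands of the same windows. TATAAA, the TATA box core, was present in 31.6% of the 38 windows against 14.3% of all protein-coding ones. GGGCGG, the core of sites for Sp factors, was present in 7.89% against 45.3%, and CCAAT in 23.7% against 39.6%. TGACGTCA, the full cAMP response element, was in 0 of the 38 windows and in 2.29% of all. CANNTG, the E-box, was in 84.2% against 69.2%. GGGCGG and TGACGTCA each contain a CpG, and the median GC content was 45.2% for the 38 windows against 55.7% for all protein-coding ones. The motif shares are therefore not independent of base composition. Each match describes letters in a window and not binding. The list holds selected positions only, and how many nucleosomes at CpG-rich promoters could have been selected is not known.

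**Figure D1:**
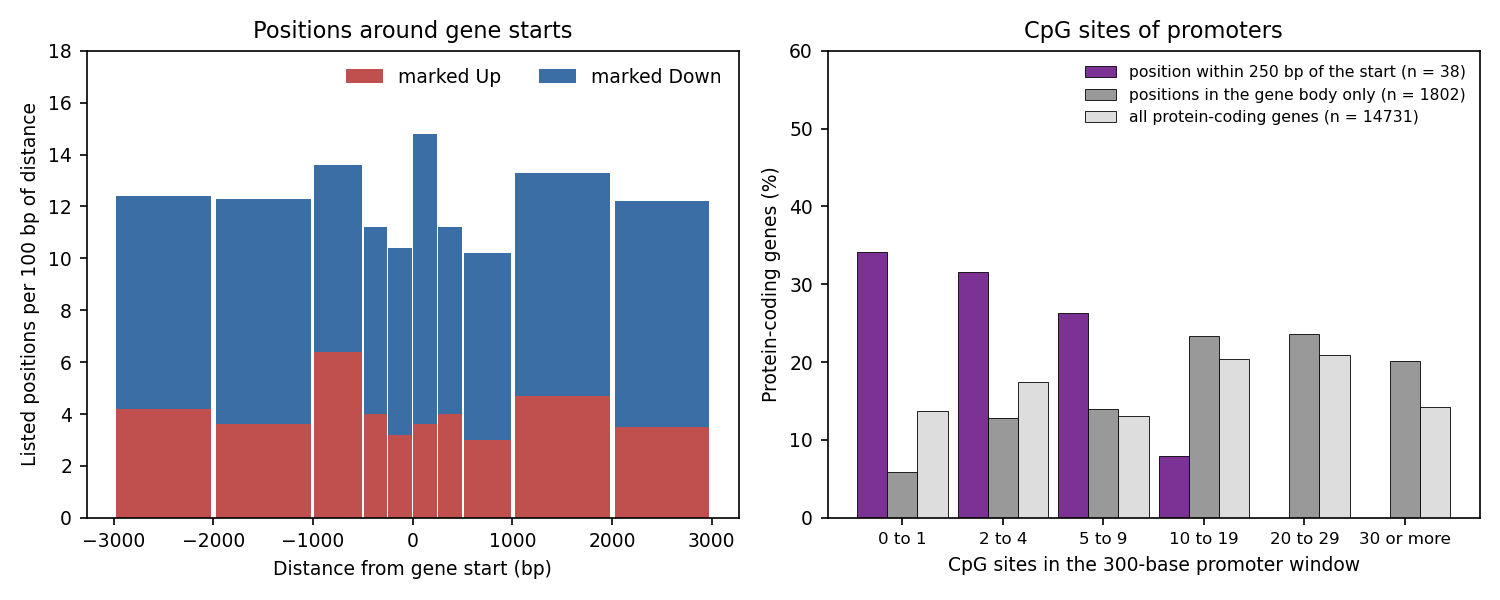
Positions and CpG content at promoters. One panel stacks positions marked Up and Down in resilient against control mice, per 100 bp, by distance from the gene start in bp. The other gives as bars the percent of protein-coding promoters by the number of CpG in the 300-base window, for genes with a position within 250 bp of the start, genes with positions in the gene body only, and all. Positions are spread over the 3 kb on both sides, and promoters with a position within 250 bp of the start are concentrated at low CpG counts, with a median of 3 against 13 for all protein-coding promoters.

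The promoter classes together held 740 positions in 704 genes, 4.22% of the table, and 33.0% of them were marked Up. The class within 250 bp of a start held 63 positions, 17 Up and 46 Down (27.0% Up). The class from 250 to 1000 bp held 175, 67 Up and 108 Down (38.3% Up), and the class from 1000 to 3000 bp held 502, 160 Up and 342 Down (31.9% Up). Upstream of the start there were 369 positions, 128 of them Up, and downstream 371, 116 of them Up. Neither side was preferred, and the number of positions per 100 bp lay between 10.2 and 14.8 in every distance bin. At the start itself, 26 positions lay in the 250 bp before it (10.4 per 100 bp) and 37 in the 250 bp after (14.8 per 100 bp, the highest bin). With counts this small, a dip or a peak at the start can be neither stated nor denied.

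Among the 46 positions marked Down within 250 bp of a start were those of Agt, the precursor of angiotensin (at 95.5 bp), and Cort, the neuropeptide cortistatin (at -21.5 bp). Adrb3, a beta-adrenergic receptor, Trpm5, a cation channel of taste cells, and Prdm8, a zinc finger regulator of neural development, were also marked Down there. Among the 17 marked Up were Vip, the neuropeptide vasoactive intestinal peptide (at 91.5 bp), Tnfrsf18, a receptor of T cells (at -208.5 bp), and Retnla, a secreted protein of activated macrophages (at -232.5 bp). Ms4a1, a B cell surface protein, Marco, a scavenger receptor of macrophages, and Musk, the receptor kinase of the neuromuscular junction, were marked Up as well. These 11 genes were chosen after their values were seen, and whether they share a function was not tested. Ms4a1 also had a position marked Down, at 2289.5 bp. Odorant and vomeronasal receptor genes, which are used in sensory neurons of the nose, made up 11 of the 63 positions, 3 Up and 8 Down. Of all 740 positions in promoter classes, 64 were in olfactory and 15 in vomeronasal receptor genes. These families have 1110 and 355 genes, beside 21900 protein-coding genes in all. Their median lengths are 0.95 and 0.963 kb, so a position in them tends to lie near a start.

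Most genes with a promoter position had 1: 229 such genes were marked Up and 447 Down. In 24 genes there were 2, both Up in 2 genes and both Down in 13. Bpifa1, a secreted airway protein, had its pair marked Up, and so did Wfdc17. Smo, the signal transducer of the Hedgehog pathway, Plau, the urokinase plasminogen activator, Trpm8, the cold receptor channel, and Chst8, a sulfotransferase, had their pairs marked Down. Dux, an embryonic genome activator encoded in a repeated array, had 3 positions, all Down. Hjurp, the chaperone that loads the centromeric H3 variant, and Sfi1, a centrosome protein, each had 1 Up and 2 Down. Rn45s, the precursor of ribosomal RNA, had 7, all Down. Rn45s and Dux exist in many near-identical copies, and how the authors' counting divided reads among copies is not given in the sources used here. Their values are uncertain, as are those of members of large families of similar genes and of the Mid1 stretch shared by X and Y, both described further on. Whether copies also affect other genes dense in positions, such as Sfi1, Sp110, Mroh2a and C130026I21Rik, was not tested.

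**Figure D2:**
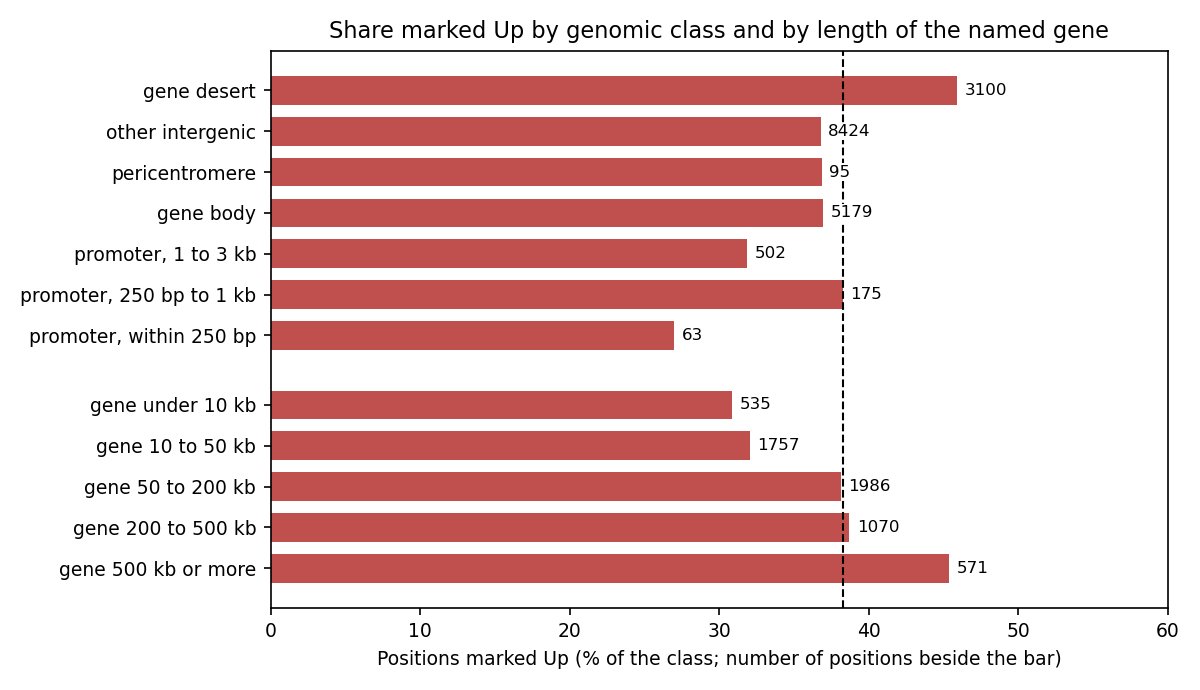
Percent of positions marked Up by class of location and by length of the gene. Bars, from 0, are the percent Up in resilient against control mice, the numbers beside them count positions, and the dashed line is 38.3% over the whole table. Gene deserts (45.9%) and genes of 500 kb or more (45.4%) reach past the line, and proximal promoters (27.0%) and genes under 10 kb (30.8%) stop short of it.

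Away from promoters, the balance of directions differed by location. Positions with no named gene numbered 11619 (39.2% Up), and those with a named gene 5919 in 3827 genes (36.5% Up). Gene deserts, long stretches without genes, held 3100 positions, 1423 Up and 1677 Down (45.9% Up). Other intergenic DNA held 8424, 3100 Up and 5324 Down (36.8% Up). Gene bodies held 5179, 1914 Up and 3265 Down (37.0% Up), and pericentromeric DNA, beside the centromere, held 95, 35 Up and 60 Down (36.8% Up). The pericentromeric share depended on a few dense stretches. Without the densest 1% of 1 Mb blocks it was 29.3% Up of 58 positions. The percent Up was higher in gene deserts than in other intergenic DNA on 19 of 19 autosomes, and higher than in gene bodies on 18 of 19, with chromosome 3 the exception. Across autosomes it ran from 36.8% to 58.3% in deserts and from 32.6% to 44.4% in other intergenic DNA. Chromosomes of 1 pair of pools are not replicates, and these counts describe how evenly the difference was spread. Directions leaned to Down in each of these 4 classes.

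The percent Up was also higher in long genes. The percent Up was 30.8% in genes under 10 kb (535 positions in 492 genes), 32.0% from 10 to 50 kb (1757 in 1463), 38.1% from 50 to 200 kb (1986 in 1283), 38.7% from 200 to 500 kb (1070 in 440) and 45.4% in genes of 500 kb or more (571 in 149). Genes of at least 200 kb together stood at 41.0% and genes under 50 kb at 31.8%, and long genes had the higher value on 15 of 19 autosomes. Without Fhit, which holds 21 positions, the longest genes stood at 44.2% of 550 positions. Place along the gene showed little difference. In genes of at least 20 kb, the percent Up in 5 equal parts of the gene body, in order from the start, was 37.2%, 37.1%, 38.4%, 38.3% and 38.4%, from 728, 904, 901, 983 and 1077 positions.

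Autosomes held from 6.07 positions per Mb (chromosome 16) to 8.13 (chromosome 7), with a median of 6.94. The percent Up ran from 32.3% on chromosome 9 to 42.5% on chromosome 16. Chromosome X stood apart, with 74 positions or 0.444 per Mb, and chromosome Y held 30 or 1.89 per Mb, 17 Up and 13 Down. The scarcity on X was also present in the other 2 tables, at 0.498 per Mb for susceptible against control and 0.606 for resilient against susceptible mice. The depth on X is not given in the sources used here.

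The X positions were also unevenly placed. Of the 74, 20 lay at the distal end, from 166410221 to 166584811 on mm9, and all 20 were marked Down. The remaining 54 were 25 Up and 29 Down. The distal group includes 8 positions in Mid1, a ubiquitin ligase of microtubules, which lie 92.7 to 109 kb from the start of its 111 kb. In C57BL/6 mice Mid1 spans the boundary of the pseudoautosomal region, the stretch shared by X and Y.

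**Figure D3:**
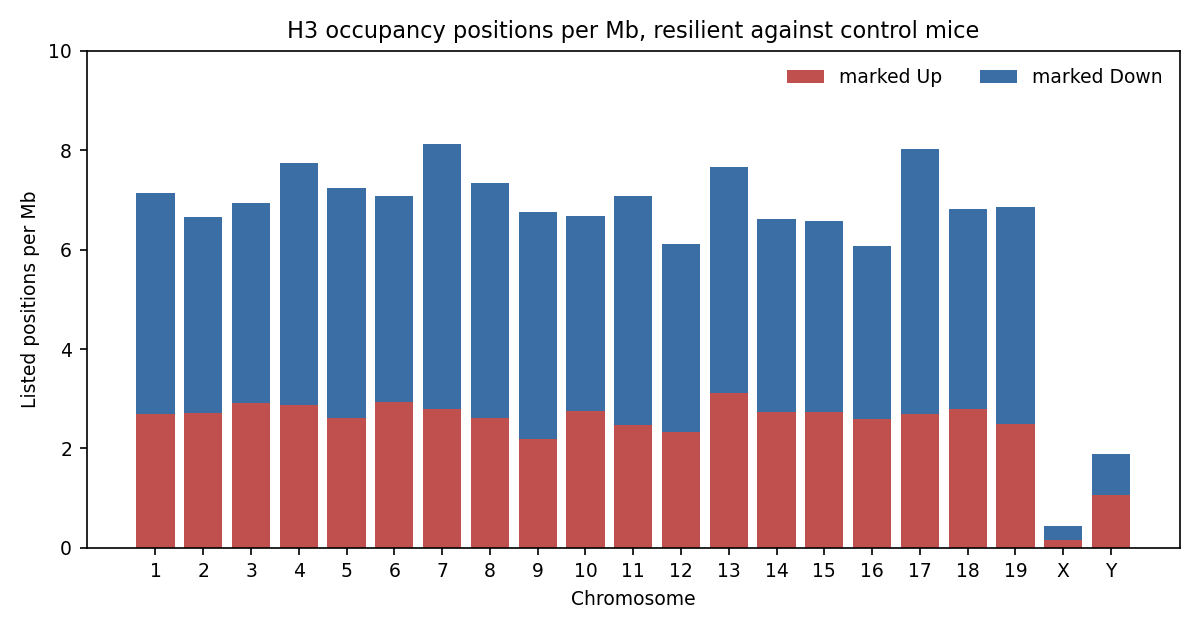
Positions and direction by chromosome. Stacked bars, from 0, give positions per Mb of the listed chromosome length, with those marked Up in resilient against control mice at the bottom and those marked Down on top. Autosomes lie between 6.07 and 8.13 positions per Mb, and X, at 0.444, and Y, at 1.89, lie far below them.

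Neighbouring positions were mostly far apart, with a median gap of 77.7 kb, and the smallest gap was 100 bp. Of 107 pairs up to 500 bp apart, 72.0% had the same mark, against 57.8% of 135 pairs from 500 to 1000 bp, 54.6% of 2343 from 5 to 20 kb and 52.7% of 7400 over 100 kb. Close pairs also leaned to Down, which by itself raises the share with the same mark. The second member was Up in 26.2% of the closest pairs and in 40.4% of the most distant. Computed from the shares of Up among the first and second members alone, the same mark would be shared by 61.4% of the closest pairs, 55.0% of those from 500 to 1000 bp, 54.1% from 5 to 20 kb and 51.8% over 100 kb. Runs of at least 5 positions with neighbours within 1000 bp numbered 3. The one with the most positions ran over 3410 bp in Rn45s on chromosome 17 with 8, all Down. Sp110, a nuclear body protein of immune cells on chromosome 1, had 5 over 2340 bp, 1 Up and 4 Down, and a stretch of 2010 bp on X past the end of Mid1 had 5, all Down.

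With neighbours up to 5000 bp apart there were 13 runs, which held 103 positions, 14 Up and 89 Down (13.6% Up). Of the 13, 0 were wholly Up and 7 wholly Down, and 11 held more Down than Up and 1 more Up. The largest covered 18830 bp of X from within Mid1, with 16 positions, all Down. On chromosome 1, runs lay in Mroh2a, beside Hjurp and beside Trpm8, and on chromosome 11 in Sfi1 and at the Pisd pseudogenes next to it. A pericentromeric run on chromosome Y held 10 positions, 5 Up and 5 Down. Runs of 5 held 3 Up and 2 Down on chromosome 13, and 2 Up and 3 Down on chromosome 14 and at Ugt1a1. Per 1 Mb, the table held a median of 6 positions and at most 43, which lay at 146 to 147 Mb on chromosome 4 (7 Up and 36 Down). The block at 90 to 91 Mb on chromosome 1 held 39 (8 Up and 31 Down) and that at 3 to 4 Mb on chromosome 11 held 37 (5 Up and 32 Down). The 28 blocks with at least 20 positions held 662 (3.77%), 195 Up and 467 Down (29.5% Up). Without the 13 runs, a comparison chosen after seeing the data, 38.4% of all positions were Up, 37.3% of 5125 in gene bodies and 32.3% of 489 in the promoter class from 1000 to 3000 bp. The runs held no position in gene deserts, in proximal promoters or in genes of 500 kb or more.

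**Figure D4:**
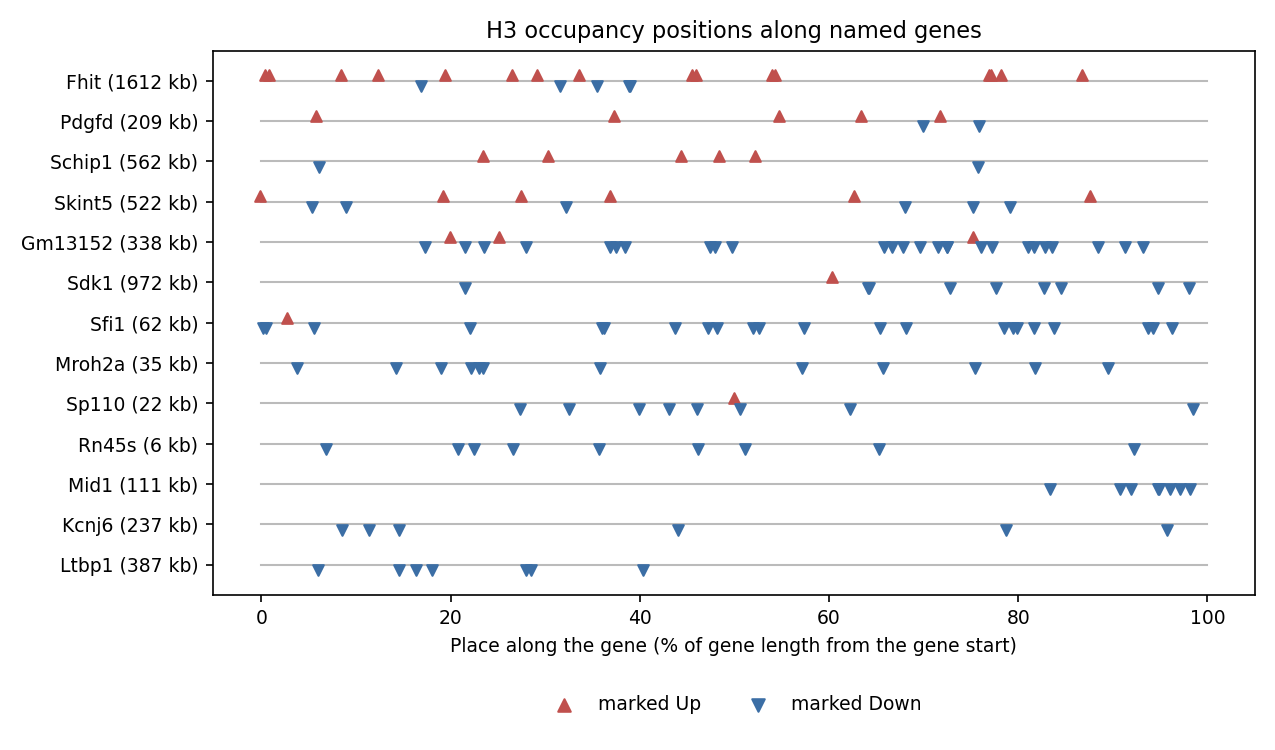
Positions along 13 named genes, by distance from the start listed for each position, in percent of the gene length. In Kcnj6 and Ltbp1 the listed start differs between positions, so the places in these rows are not all counted from 1 start. Each row is a gene with its length in kb, and each triangle is a position, pointing up where marked Up in resilient against control mice and down where marked Down. Marks in Rn45s, Mroh2a and Mid1 are all Down and those in Sfi1 are Down except 1, whereas Fhit has 16 Up and 5 Down over 1612 kb.

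Among genes, 2748 of 3827 held 1 position, 639 held 2, 224 held 3, 90 held 4 and 126 held at least 5. The median length was 360 kb for the last set and 34.6 kb for genes with 1. Of the 126, 32 held more Up, 79 more Down and 15 equal numbers. Of these genes, 0 were wholly Up (0.0%) and 12 were wholly Down (9.52%), where 61.7% of all positions were Down. Those with 6 or more were Mroh2a with 12, Rn45s with 9, Mid1 with 8, Ltbp1 with 7, and Kcnj6, Slc39a11, C130026I21Rik and 6030407O03Rik with 6 each. Ccdc171, Dmrt1, Itga9 and Stk32b held 5 each. Kcnj6 encodes the potassium channel subunit GIRK2, which couples to inhibitory receptors on neurons, and its 6 positions lay 20.2 to 226 kb from the start listed for each. Ltbp1 encodes a matrix protein that holds latent TGF-beta, and its 7 lay 23.2 to 156 kb from the start listed for each. Slc39a11 encodes a zinc transporter, Itga9 an integrin subunit, Dmrt1 a transcription factor of the testis and Stk32b a kinase.

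The gene with the most positions was Gm13152, named Zfp982 in RefSeq, a zinc finger gene on chromosome 4, with 3 Up and 26 Down over 256 kb. Sfi1 followed with 1 Up and 22 Down, spread from 0.0845 to 59.3 kb of its 61.6 kb. Fhit, a diadenosine hydrolase whose human counterpart lies at a common fragile site, had 16 Up and 5 Down and was the gene with the most Up. Cdh13, a cadherin anchored in the membrane by a lipid, had 5 Up and 7 Down, and Skint5, an immunoglobulin-like gene of skin, 6 and 6. Cadps2, which primes dense-core vesicles, and Gpc5, a heparan sulfate proteoglycan, each had 5 and 5. Mast4, a kinase, had 4 Up and 6 Down, Camta1, a calmodulin-binding transcription activator, 3 and 6, and Kcnmb2, an accessory subunit of BK potassium channels, 2 and 7. Sdk1, an adhesion protein that guides synaptic layers, had 1 Up and 9 Down. Leaning the other way, Fam155a, Pdgfd, a platelet-derived growth factor, and Schip1 each had 5 Up and 2 Down, and 5033411D12Rik 5 and 1. Per 100 kb of gene, the median over the 126 genes was 1.67 positions. The densest were Rn45s at 154, Sp110 at 41.1, Sfi1 at 37.3, Mroh2a at 34.0 and C130026I21Rik at 24.8, and Loxl2, a lysyl oxidase of the matrix, had 9.26 with 1 Up and 7 Down.

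The other 2 tables share the resilient or the control library with this one, so their marks are given side by side and are not independent. Rn45s had 0 Up and 9 Down in resilient against control mice, 0 and 6 in susceptible against control mice, and 2 and 2 in resilient against susceptible mice. Ltbp1 had 0 and 7, then 0 and 5, then 2 and 1 in the same order of tables, and Kcnj6 0 and 6, then 0 and 2, then 2 and 2. Fhit had 16 Up and 5 Down, then 11 and 8, then 8 and 8. Mid1 had 0 Up and 8 Down in resilient against control mice, 14 and 2 in susceptible against control mice, and 0 and 27 in resilient against susceptible mice. Sfi1 had 1 and 22, then 24 and 11, then 0 and 26, and Stk32b 0 and 5, then 5 and 3, then 0 and 5. Pdgfd had 5 and 2, then 0 and 1, then 3 and 1.

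Gene families were set beside the whole annotation, in which 3552 of 21900 protein-coding genes (16.2%) held at least 1 position and 36.5% of their 5509 positions were Up. Families were taken by the form of the gene symbol alone, and what each member does was not checked. Longer genes offer more room for a position, so the median length of a family or list stands in parentheses after its count of genes, against 17.1 kb over all coding genes. Of the surface proteins, contactins and contactin-associated proteins, which join axons to neighbouring cells, had positions in 9 of 13 genes (median length 401 kb), 13 Up and 9 Down. Cntnap2 had 4 and 3, Cntn5 3 and 2, and Cntnap5a 2 and 2. Protocadherins and cadherins had them in 13 of 97 genes (90.3 kb), 12 Up and 27 Down. The protocadherin cluster transcript Pcdha4-g, renamed in RefSeq and not counted among them, had 1 Up and 7 Down. Collagens of the matrix had them in 26 of 44 (114 kb), 19 Up and 36 Down. Semaphorins and plexins, which steer axons, had 7 Up and 8 Down in 9 of 29 genes (39.8 kb), and neurexins and neuroligins, which pair across the synapse, 4 and 8 in 3 of 6 (513 kb).

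At the synapse, postsynaptic scaffold genes had positions in 12 of 21 members (median length 106 kb), 11 Up and 5 Down. Magi1 had 3 Up and 0 Down and Magi2 2 and 0, while Homer2 had 0 and 2. Glutamate receptors had them in 13 of 27 (278 kb), 11 Up and 18 Down, with 4 and 1 in Grik4, a kainate receptor subunit. Genes of presynaptic release had 6 Up and 9 Down in 9 of 23 members (173 kb), and GABA receptors 1 and 3 in 4 of 21 (88.6 kb). Potassium channels had positions in 22 of 94 genes (32.7 kb), 16 Up and 34 Down. Beside Kcnj6 and Kcnmb2, Kcnip1, a calcium-binding channel partner, had 0 Up and 4 Down, and Kcnb2, a delayed rectifier subunit, had 3 and 0. Calcium channels had 5 Up and 7 Down in 8 of 26 genes (104 kb), with 0 and 3 in Cacna1d, an L-type channel, and Trp channels 5 and 14 in 10 of 24 (52.2 kb). Solute carriers had 45 Up and 86 Down in 88 of 389 genes (29.8 kb), and ABC transporters 16 and 19 in 22 of 50 (64.8 kb). ADAM proteases had 12 Up and 21 Down in 19 of 59 genes (36.4 kb), phosphodiesterases 7 and 10 in 10 of 26 (106 kb), and adenylyl cyclases 2 and 1 in 3 of 10 (104 kb). Ephrins and their receptors had 1 Up and 5 Down in 4 of 22 (27.8 kb), and sodium channels 0 and 3 in 2 of 14 (103 kb). Sox factors had 4 Up and 8 Down in 5 of 19 genes (4.79 kb) and Fox factors 1 and 4 in 5 of 44 (5.19 kb).

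Signalling lists held few positions each. In dopamine and opioid signalling 5 of 20 genes (27.1 kb) had positions, 4 Up and 2 Down. Ddc, the decarboxylase that makes dopamine, had 2 Up, and Drd2, the dopamine receptor of the indirect pathway, and Rgs9, which shortens its signal in the striatum, had 1 Up each. Oprk1, the kappa opioid receptor, and Tac1, the substance P precursor, had 1 Down each. In BDNF and MAP kinase signalling 8 of 22 genes (78.1 kb) had positions, 2 Up and 8 Down, with 0 and 3 in Map2k5, a MAP kinase kinase. In the Wnt pathway 5 of 20 (55.9 kb) had them, 3 Up and 10 Down, with 0 and 4 in Lef1, a transcription factor of the pathway, 2 and 3 in Tcf7l1 and 0 and 2 in Lrp5, a coreceptor. Serotonin and acetylcholine receptors had 4 Up and 7 Down in 9 of 26 genes (20.8 kb), and glucocorticoid and stress genes 1 and 3 in 3 of 20 (14.2 kb). Histone and DNA modifiers had 2 Up and 4 Down in 5 of 33 (65.9 kb), and nucleosome remodellers had 2 Up and 3 Down in 4 of 26 (102 kb). Smarca5, which encodes SNF2H, had 1 Down, and Baz1a, which encodes ACF1, had 1 Up and 1 Down. Of the marker lists, medium spiny neurons, the main neurons of the accumbens, had positions in 4 of 14 genes (29.3 kb), 3 Up and 1 Down. Endothelium had them in 4 of 5 genes (61.1 kb), 2 Up and 4 Down. Cortical excitatory neurons had 2 Up and 2 Down in 2 of 5 (12.2 kb), microglia 0 and 2 in 2 of 5 (19.6 kb) and astrocytes 1 and 0 in 1 of 5 (21.6 kb). Oligodendrocytes had positions in 0 of 5 genes (18.4 kb).

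Olfactory receptors had positions in 68 of 1110 genes (6.13%), 28 Up and 43 Down. Their median length is 0.95 kb, and 64 of the 71 positions lay in promoter classes. Vomeronasal receptors had them in 37 of 355 (0.963 kb), 20 Up and 22 Down. Zinc finger genes had them in 52 of 400 (median length within 1 kb of that of all coding genes), 24 Up and 82 Down, and 27.3% of 77 were Up without Gm13152, 29.3% of 58 outside chromosome 4.

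**Figure D5:**
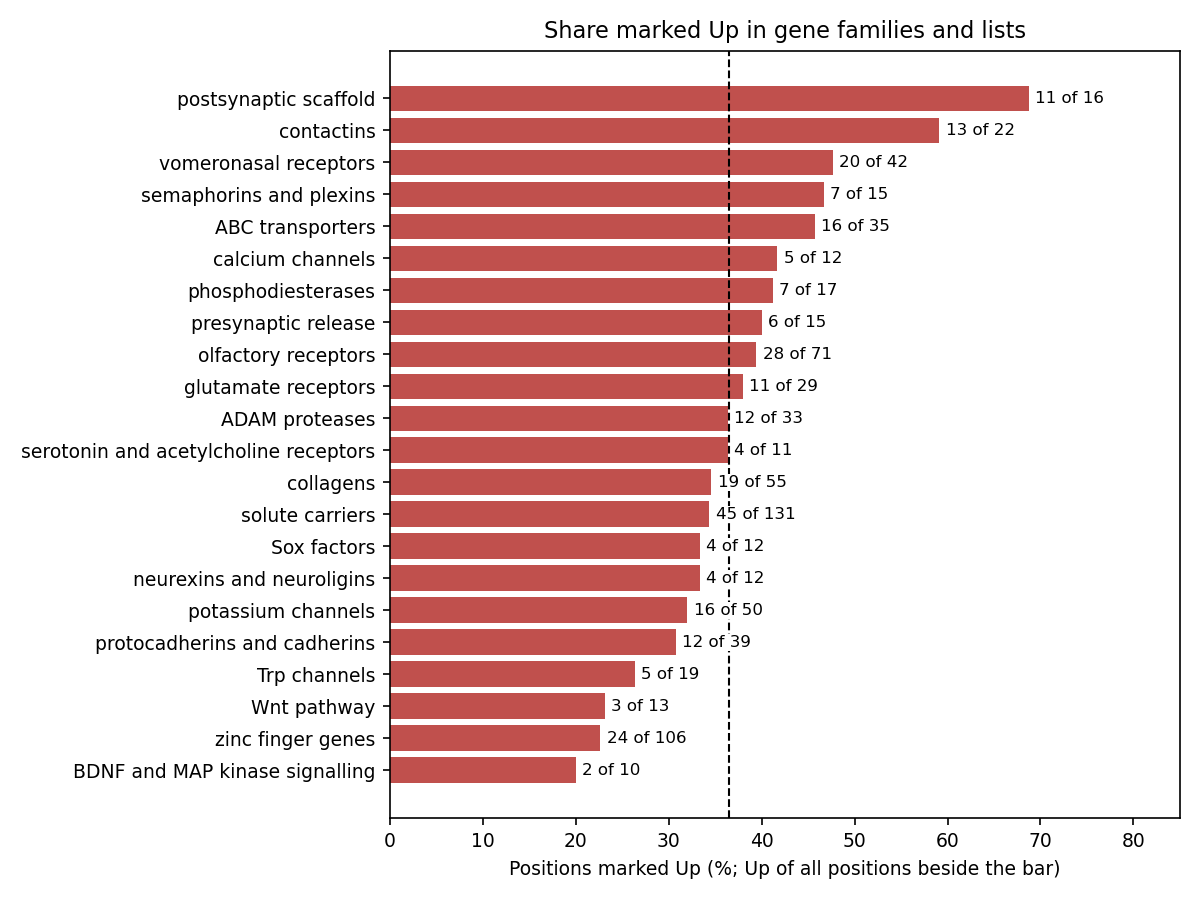
Gene families and lists, by the percent of their positions marked Up in resilient against control mice. Bars start at 0, the numbers beside them count Up positions of all positions, and the dashed line marks the value over all protein-coding genes, 36.5%. Contactins (13 of 22) and postsynaptic scaffold genes (11 of 16) reach past it, and zinc finger genes (24 of 106) stop short of it.

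ACF1 was profiled in the same groups. The authors' deposited segmentation gives 2 states per sample, and the rarer state is called a segment here, although nothing in the files says which state is binding. Segments with 1000 bp on either side covered 0.161% of the genome in resilient mice (716 segments) and 0.155% in control mice (749). Within 1000 bp of a resilient segment lay 209 occupancy positions (1.19%), 54 Up and 155 Down (74.2% Down), and within 1000 bp of a control segment 237 (1.35%), 47 Up and 190 Down (80.2% Down). Of positions near segments of both lists, 175 in all, 76.6% were Down. Of the 34 near a segment of resilient mice only, 61.8% were Down, and of the 62 near a segment of control mice only, 90.3% were Down, against 61.5% of the 17267 near neither. Mroh2a held 9 of the 62 and Mid1 5, and 15 of them lay on chromosome 1. Without the 13 runs the share Down was 63.6% of 33 near resilient segments only, 86.0% of 43 near control segments only and 71.3% of 122 near both. Sfi1 held the most positions near segments, 15 near those of resilient mice and 19 near those of control mice, then Gm13152 with 13 and 11. All 9 in Rn45s, all 9 in Sp110 and all 3 in Dux were near both. Rn45s and Dux exist in many copies, and whether reads from copies gathered at the same places in both assays was not tested.

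A separate deposited table lists positions where nucleosomes shifted between resilient and control mice, made from the same libraries. It held 612 shifts with a median size of 70 bp, 312 of them positive in sign, which the files do not explain. The 26 shifts in promoter classes were all of 60, 70 or 80 bp, in either direction. Which sizes could be selected is not given in the sources used here, so the median may reflect the selection. Of the 612, 51 (8.33%) lay within 1000 bp of an occupancy position. By gene, a wider and length-dependent unit, 85 had both, 55.6% of the 153 genes with a shift and 2.22% of the 3827 with an occupancy position, where 16.2% of all protein-coding genes held an occupancy position. The median length was 84.2 kb for the 85, 48.3 kb for all 3827 and 17.1 kb for all protein-coding genes. That of the 153 is not given here, so the part of length in these shares is not known. Sfi1 had 16 shifts beside its 23 occupancy positions, Gm13152 had 8 beside 29, and Mroh2a had 3 beside 12. Rn45s had 2, both of 60 bp.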

How the data were processed

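The authors' deposited H3 tables were made from MNase-treated H3 immunoprecipitates of 1 sample per group (10 mice pooled each). The submitters' processing notes name CASAVA 1.8.2 and mm9. Aligner, caller, selection threshold and depth: not given in the sources used here. The values in the deposited tables are of other kinds than counts or signals: a word for direction, a class of location, a shift in bp and a state name. Which groups a table compares was read from its deposited name.

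From the files, positions were counted by direction, class, chromosome, gene and gap with Python 3.11.15, pandas 2.3.3 and numpy 2.4.6, and the counting was tested on simulated data. Distance is that of the listed position from the listed gene start. Clusters needed 5 positions with neighbours within 1000 bp. The genes with most positions, with most in 1 direction, with 1 direction only, densest and with several promoter positions are named, together with list members holding positions. Others named were chosen after their values were seen. Of 3827 gene symbols, 3813 matched RefSeq. Promoter sequence came from RefSeq on GRCm38.p6, and no coordinates were converted. Members, lists and families were chosen with earlier results of these data known. No test was run, since each group has 1 sample. Inputs and SNF2H were not analysed here.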

Additional observations from a re-analysis of the deposited data

How the results depend on the processing

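Of the 114 recomputed summary and gene values, 102 stayed within 1.5 times the count or within counting error, and none changed direction. The share marked Up was 36.5% over positions with a named gene. Leaving out the densest 1% of blocks, with ties at 20 positions broken by chromosome name so that the X block stayed in, left 58 pericentromeric positions, against 95. Of those 58, 29.3% were Up, against 36.8% of the 95. Counting promoters within 1000 bp gave 238 positions, against 740. With at least 4 positions required, 33 genes were wholly Down and 1, Gpr98, wholly Up, and with at least 8 required 3 were wholly Down, against 12 Down and 0 Up with 5. Clusters numbered 0 at a gap of 500 bp, 13 at 5000 bp and 1 with at least 8 positions, against 3. With ACF1 segments under 10 kb only, 64 positions lay near resilient segments and 78 near control segments, against 209 and 237, with 25.0% and 19.2% Up. Counted by distance, 51 shifts lay within 1000 bp of an occupancy position, which is a number of shifts and not comparable with the 85 genes that hold both. Leaving out the 13 runs was chosen after seeing the data. No paired analysis was possible because each group has 1 sample and the table is 1 result. Without replicates, depth or the positions not selected, neither the spread between animals nor the error of a mark can be given.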
